A study of Mus musculus with 78 samples.

Results

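The 9 genes described here, Mmachc, Mmab, Mmaa, Mmadhc, Mtr, Mtrr, Cd320, Lmbrd1 and Abcd4, carry vitamin B12 (cobalamin) into mouse cells and on to the enzymes that use it. They are 9 of the 55401 genes listed in each of 3 count tables made from a mouse embryonic stem cell line in which the transcription factor ZFP143 can be degraded. The genes were listed by role, with earlier results of these data known. Mmachc is taken here as chosen on its deep fall on dTAG-V1 in the RA table, before and after retinoic acid, so all its values in the RA table are a description and carry no test.

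Cobalamin bound to its carrier transcobalamin enters cells through the receptor encoded by Cd320. It leaves the lysosome with the help of the membrane proteins encoded by Lmbrd1 and Abcd4, and in the cytosol MMACHC strips off its upper ligand. MMADHC then steers it to either of its users, namely methionine synthase (Mtr, kept active by the reductase Mtrr), which remakes methionine from homocysteine, or the mitochondrial methylmalonyl-CoA mutase, which needs adenosylcobalamin made by MMAB and delivered by MMAA. Loss of MMACHC causes the cblC disorder, in which both users fail, and MMACHC is a known target of ZNF143, the human ortholog of ZFP143, which acts there with THAP11 and HCFC1.

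The cells were E14TG2a (129/Ola) mouse embryonic stem cells with an FKBP-2xHA-P2A-GFP cassette at the Zfp143 gene, so that the small molecule dTAG-V1 (500 nM) directs the tagged ZFP143 to degradation. All groups carried the tag and the control groups received DMSO. Newly made RNA was labelled with 4-thiouridine and sequenced (TT-seq) from DMSO cells and from cells given dTAG-V1 for 2, 6 or 24 h, and polyadenylated RNA was sequenced (RNA-seq) from cells in DMSO and after 24, 48 and 72 h. In a further set, called the RA table here, cells had 24 h of DMSO or dTAG-V1 and were collected, or were then moved to N2B27 medium with retinoic acid (RA) for 24 h more with the DMSO or dTAG-V1 kept on. Each group had 2 libraries, given as biological replicates. Cells after RA had thus been on DMSO or dTAG-V1 for 48 h against 24 h before RA, so that RA, the change of medium and the longer treatment cannot be told apart.

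ZFP143 peaks, called from chromatin immunoprecipitated through the HA tag, lay at the promoters of 2 of the 9 genes, Mmachc and Mtr. A promoter peak was one that reached into the 2000 bp before or the 1000 bp after an annotated transcript start (mm10, GENCODE vM21), with its centre within 2000 bp of that start. Such a peak was found for 5.02% of all annotated genes and for 13.8% of the genes tested in TT-seq. The Mmachc peak covered 719 bp of chromosome 4 (116708123 to 116708841) and was 115-fold enriched over background, with its summit 18 bp upstream of the Mmachc start, and only 76 of the 3189 ZFP143 peaks were more enriched. The same summit lay 85 bp upstream of Ccdc163, a gene transcribed in the opposite direction from the other side of the summit. At Mtr the peak covered 499 bp of chromosome 13 (12258008 to 12258506), was 54.7-fold enriched, and had its summit 180 bp upstream of the start. For the other 7 genes the nearest ZFP143 summit was 18526 bp (Cd320) to 3421997 bp (Lmbrd1) from a start. The nearest CTCF peak lay 0 bp from a start for Mmaa and Lmbrd1, 24 bp for Abcd4, 1464 bp for Mmab and 1687 bp for Mmadhc. It lay 3464 bp from a start for Mtrr and 15895 bp for Cd320. The share of all genes with a CTCF peak that near was not computed, so these distances are a description.

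The bases around both summits are shown because they hold a 13-base element that the bound promoters share, ACTACA followed after 2 bases by TCCCA, the left part of the known ZFP143 recognition site. It is in capitals in these stretches of the RefSeq GRCm38.p6 genome, chr4:116708386-116708508 on the plus strand (between the RefSeq start of Mmachc, which runs the other way, and the GENCODE start of Ccdc163) and chr13:12258203-12258382 on the minus strand, along which Mtr is transcribed.
Mmachc: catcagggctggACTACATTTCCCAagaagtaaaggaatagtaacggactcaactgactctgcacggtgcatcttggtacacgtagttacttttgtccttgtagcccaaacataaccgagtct
Mtr: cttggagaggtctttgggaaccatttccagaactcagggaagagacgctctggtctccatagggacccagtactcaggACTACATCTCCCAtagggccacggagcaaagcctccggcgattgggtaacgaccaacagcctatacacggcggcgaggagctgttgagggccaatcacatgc

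At Mmachc the element spans positions 116708398 to 116708410, from 26 to 14 bases below the summit, and so it covers the GENCODE start of the gene at 116708406 and lies upstream of the RefSeq start at 116708385. At Mtr it spans 12258292 to 12258304, directly at the summit. Searched on both strands, the element was present in 1.47% of the 32817 RefSeq promoter windows (250 bases before to 50 bases after a start) and in 26.1% of 300-base windows centred on the 3189 ZFP143 summits. RefSeq promoter windows were found for 7 of the 9 genes (not for Mmadhc and Abcd4), and among those the element was present at Mmachc and Mtr only. CCCANNATG, from the right part of the site, was found in neither of the 2 bound promoters, against 5.01% of all promoters and 25.7% of summit windows. The letters searched were chosen with these sequences in view, and a match is a description, not a site. The peaks came as 1 list without replicates, so they are given without a test.

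**Figure D1:**
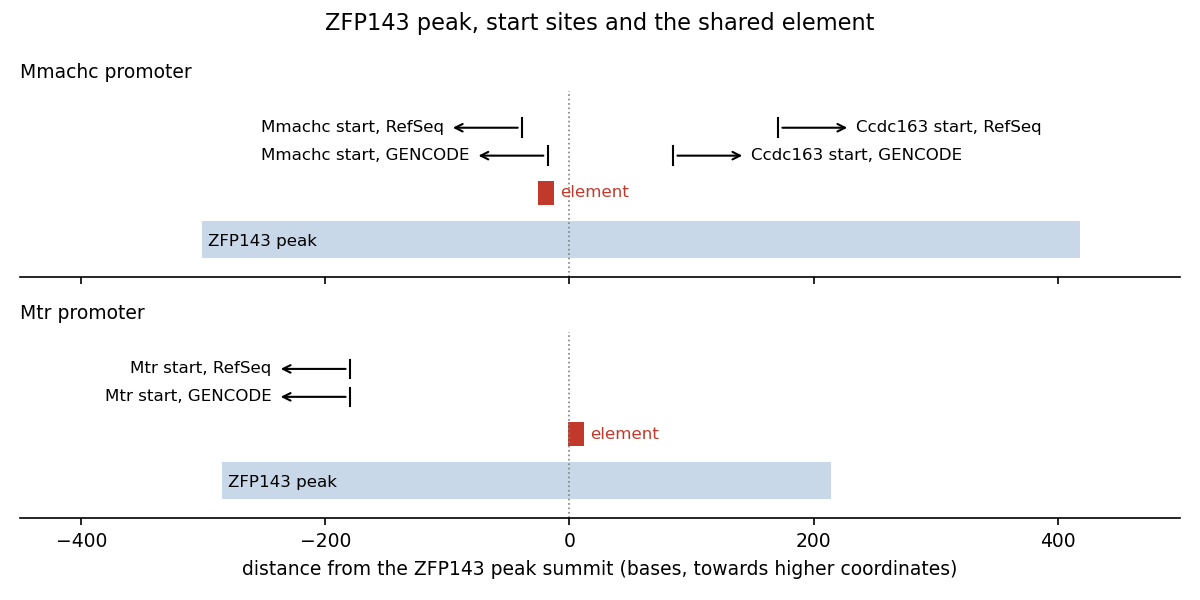
ZFP143 peaks (pale bars), the 13-base element (red) and annotated start sites (arrows along the direction of transcription) at the Mmachc and Mtr promoters, drawn to scale as distance in bases from the peak summit. The element sits 26 to 14 bases from the summit at Mmachc, over its GENCODE start, and at the summit at Mtr.

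In DMSO, Mmachc was the second most abundant of the 9 transcripts per length of exon. In RNA-seq it stood at 22.5 ± 2.08 CPM (counts scaled to library size) per kb, as mean ± SD of n = 2 libraries, below Mmadhc at 28.5 ± 0.325 and above Mtrr at 14.2 ± 0.588. Then followed Cd320 (9.93 ± 1.30), Abcd4 (9.06 ± 0.0423), Mtr (7.36 ± 0.165), Mmab (5.65 ± 0.296), Lmbrd1 (2.41 ± 0.430) and Mmaa (0.659 ± 0.00487). The 2 libraries of each gene kept apart from those of its neighbour in this order, except that Cd320 overlapped Abcd4. In TT-seq, per kb of whole gene, the order differed and Mmachc was the 7th at 1.26 ± 0.176 CPM per kb, overlapping Mmab (1.37 ± 0.232), while Mtrr led at 3.71 ± 0.505 and Lmbrd1 was the lowest at 0.617 ± 0.0750. In that order Mtrr overlapped Abcd4, Abcd4 overlapped Cd320, Mtr overlapped Mmab and Mmaa overlapped Lmbrd1.

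Newly made Mmachc RNA fell after ZFP143 loss. In TT-seq its CPM was 6.93 and 8.46 in the DMSO libraries, 1.99 and 1.20 after 2 h, 0.546 and 0.248 after 6 h and then 0.590 and 0 after 24 h. Every depleted library was below both DMSO libraries from the first time point on, and 1 library at 24 h held no Mmachc read. Counts were low, 67 and 111 in DMSO and 6 and 0 at 24 h, and Mmachc passed the filter on low counts (more than 10 in at least 4 of the 8 libraries) through the DMSO and 2 h libraries. The log2 change against DMSO was -2.28 ± 0.57 (SE) at 2 h, where it missed the call (edgeR adjusted p = 0.0966), -4.24 ± 0.69 at 6 h (edgeR adjusted p = 0.0131) and -4.82 ± 0.75 at 24 h (edgeR adjusted p = 0.00795). A TT-seq call needed an adjusted p under 0.05 and a log2 change beyond 0.5, and 2.6%, 3.23% and 6.11% of the 17870 genes tested were called at 2, 6 and 24 h. On summed counts the 2 h libraries held 19.8% of the control level (counting interval 13.9% to 27.5%), the 6 h libraries 5.14% of the control level (counting interval 2.42% to 9.67%) and the 24 h libraries 3.29% of the control level (counting interval 1.19% to 7.31%). These 95% intervals cover counting error only. At 2 h DESeq2 (adjusted p = 0.0143), edgeR without the filter (2.44e-07) and edgeR with the replicate numbers as a block (0.0188) did call Mmachc, with 2.44e-07 to 0.475 over all alternatives. At 6 h the call was lost without DMSO replicate 2, 6 h replicate 1 or 6 h replicate 2, with adjusted p of 0.0611, 0.113 and 0.15 (1.45e-17 to 0.15 over all alternatives), while the log2 changes were -4.07, -4.90 and -3.80. With the 1.5-fold threshold of the RNA-seq tables the calls at 6 h (adjusted p = 0.0275) and 24 h (0.0174) were both lost, and at 24 h the adjusted p was 1.84e-19 to 0.0382 over all alternatives.

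The steady-state transcript was almost gone by 24 h. In the RNA-seq time course Mmachc stood at 46.8 and 53.3 CPM in DMSO (509 and 748 counts), and the 6 depleted libraries held between 0 and 7 counts each. Their CPM was 0.565 and 0.456 at 24 h, 0.160 and 0.445 at 48 h and then 0.185 and 0 at 72 h. On summed counts this left 1.02% of the control level (counting interval 0.525% to 1.79%) at 24 h, 0.585% of the control level (counting interval 0.235% to 1.21%) at 48 h and 0.156% of the control level (counting interval 0.0188% to 0.563%) at 72 h, the last from 2 counts in all against 1257 in DMSO. The fall was so deep that Mmachc failed the filter on low counts, which asks for more than 10 counts in 4 of the 8 libraries, and so it was not among the 13925 genes tested in this table. The same held for 14 others of the 9407 genes with at least 100 counts in both DMSO libraries, among them Mrps25, Zfp111 and Enox2. In a fit without the filter, which called 3.29%, 10% and 14.5% of 28002 genes at 24, 48 and 72 h, Mmachc had log2 changes of -6.60, -7.40 and -9.18, with edgeR adjusted p of 9.81e-169, 1.49e-180 and 2.07e-198. A call in both RNA-seq tables asked for a change beyond 1.5-fold at an adjusted p under 0.01. Fitted changes from so few counts depend on the prior count of the fit, and their fitted errors were smaller than counting error and are not given. The adjusted p rest on those same errors, so their size is not a measure of strength. In TT-seq, too, edgeR without the filter gave an adjusted p of 2.44e-07 at 2 h, where the fit with it missed the call. The intervals of the summed counts above leave out variation between libraries.

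In the RA table, on which it was chosen, Mmachc was at 58.0 and 56.3 CPM in DMSO and 0.364 and 0.120 after 24 h of dTAG-V1, which is 0.394% of the control level (counting interval 0.189% to 0.727%). After RA it was at 31.4 and 30.8 CPM with DMSO and 0.389 and 0.419 with dTAG-V1, which is 1.30% of the control level (counting interval 0.753% to 2.08%). As a description, the fitted log2 changes were -7.94 before and -6.25 after RA. The change before RA was -8.83 without dTAG replicate 1 and -7.27 without dTAG replicate 2, and that after RA was -6.04 with library size alone. Its values with and without RA come from these same libraries, and it passed the filter in this table through its DMSO libraries only, so they too are a description. With DMSO, its level after RA was 54.5% of that before RA (counting interval 50.7% to 58.6%). With dTAG-V1 it rested on 10 counts before RA and 17 after RA, 179% of that before RA (counting interval 77.5% to 438%).

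**Figure D2:**
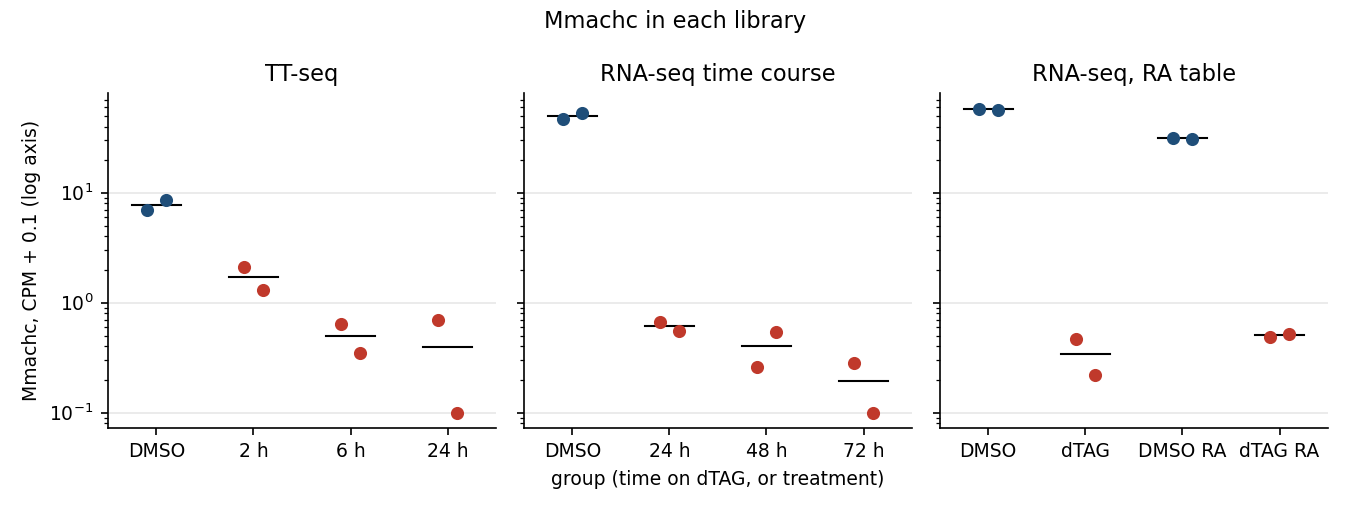
Mmachc in each of the 24 libraries, as CPM + 0.1 on a log axis; points are libraries (blue DMSO, red dTAG-V1) and black lines group means. All 16 dTAG-V1 libraries lie below the 8 DMSO libraries, and in RNA-seq the level is already at 0.565 and 0.456 CPM at 24 h.

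Ccdc163, which shares the bound promoter, fell with Mmachc in RNA-seq. It was at 11.4 and 10.8 CPM in DMSO and 1.69 and 1.73 at 24 h, 1.20 and 1.34 at 48 h and then 0.278 and 0.818 at 72 h, with a log2 change of -2.68 at 24 h (edgeR adjusted p = 7.33e-09) and -4.21 at 72 h (adjusted p = 2.77e-12). Before RA it was at 14.5 and 15.9 CPM in DMSO and 0.883 and 1.12 in dTAG-V1. In TT-seq it did not pass at any time (log2 change -0.30 ± 0.17 at 24 h, interval -0.63 to 0.02), but Ccdc163 (chr4:116708509-116751206) overlaps Tesk2 (chr4:116720948-116805956) on the same strand and reads over whole genes were counted for both, so the TT-seq value of Ccdc163 cannot be separated from that of Tesk2. Prdx1, the peroxiredoxin gene downstream of Mmachc, has no peak at its promoter. Its RNA-seq level was 838 and 889.8 CPM in DMSO, 665 and 593 at 24 h and then 369 and 364 at 48 h, and it was called lower at 48 h (log2 change -1.24 ± 0.05, edgeR adjusted p = 1.81e-13) and 72 h (-1.13) but not at 24 h (-0.46), with TT-seq log2 changes between -0.13 and 0.06, none called.

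Of the other 8 genes, 0 were called in TT-seq at 2, 6 or 24 h by edgeR or by DESeq2, beside the low shares of 2.6%, 3.23% and 6.11% over all genes. At an unadjusted edgeR p under 0.05 there were 0 of 8 at 2 h and 2 of 8, Cd320 lower and Lmbrd1 higher, at 6 and at 24 h. Mtr, the methionine synthase gene and the other bound member, was at 103 and 104 CPM in DMSO, 109 and 102 at 2 h, 119.7 and 107 at 6 h and then 114 and 116 at 24 h. All 6 depleted libraries lay within 102 to 119.7 CPM, and the change at 24 h was 0.15 on the log2 scale with an interval of -0.07 to 0.38. Mtr RNA was above DMSO in every depleted library of the time course, at 61.7 and 63.7 CPM in DMSO against 80.5 and 85.8 at 24 h, 74.5 and 73.0 at 48 h and then 86.7 and 79.5 at 72 h. That difference stayed under the 1.5-fold asked for, with log2 changes of 0.40 ± 0.06, 0.23 ± 0.06 and 0.40 ± 0.06 (edgeR adjusted p of 1 at each), and its sign was opposite to that of Mmachc. In the RA table Mtr was at 97.0 and 95.1 CPM in DMSO and 129 and 127 in dTAG-V1 before RA, likewise higher without passing (log2 change 0.41 ± 0.07). Among the 2463 genes tested in TT-seq with a ZFP143 peak at a promoter, 21.8% were called lower at 24 h and 1.38% higher, so that Mmachc is among the bound genes that fell and Mtr among the larger number that were not called.

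Lmbrd1, which encodes a lysosomal membrane protein of cobalamin export, was the member called higher in the time course. Its RNA was at 16.2 and 12.5 CPM in DMSO, 21.3 and 18.7 at 24 h, 36.1 and 34.9 at 48 h and then 54.9 and 54.0 at 72 h. No depleted library overlapped DMSO, and each later time was above the one before. The log2 change was 0.50 ± 0.11 at 24 h (edgeR adjusted p = 1), 1.33 ± 0.10 at 48 h (adjusted p = 1.13e-07) and 1.94 ± 0.10 at 72 h (adjusted p = 1.03e-13), or 3.84-fold. Of the 8 members tested in that table, 0 of 8 were called at 24 h and Lmbrd1 alone at 48 and 72 h, against 5.73%, 18.2% and 25.8% of all genes tested. At 24 h edgeR gave 0 of 8 at an unadjusted p under 0.05 against the 1.5-fold threshold as well, and DESeq2 called 0 of 8. The TT-seq level of Lmbrd1 was 58.8 and 49.5 CPM in DMSO and 67.6 and 67.2 at 24 h, a log2 change of 0.32 ± 0.13 that was not called (edgeR adjusted p = 0.183) beside 0.50 in RNA-seq at the same time.

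Abcd4, the partner of LMBRD1 in cobalamin export from the lysosome, stood at 72.7 and 72.3 CPM in DMSO, 70.7 and 75.8 at 24 h, 95.0 and 96.3 at 48 h and then 94.9 and 96.1 at 72 h. The 48 and 72 h libraries were above DMSO, with log2 changes of 0.40 ± 0.06 and 0.40 ± 0.06, below the 1.5-fold asked for. Cd320, the cell-surface receptor, had RNA-seq log2 changes of 0.09, -0.23 and -0.22 and TT-seq changes of -0.31, -0.53 and -0.47, none called. Its TT-seq libraries did not overlap, with 15.5 and 17.4 CPM in DMSO and 11.1 and 12.5 at 24 h.

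The remaining genes did not pass at any time. Mmadhc, which steers cobalamin between its users, was at 56.9 and 57.9 CPM in DMSO and 70.5 and 63.8 at 72 h (log2 change 0.22 ± 0.07). Mmaa, whose product guards the mutase, was low throughout, from 3.95 and 3.99 CPM in DMSO to 6.80 and 6.32 at 48 h (log2 change 0.72 ± 0.20, edgeR adjusted p = 0.328). Mmab, the adenosyltransferase, was at 21.5 and 20.0 CPM in DMSO, 25.3 and 27.7 at 24 h and then 20.8 and 18.3 at 72 h, and Mtrr was within 71.9 to 83.3 CPM in all 8 libraries. The median log2 change of the 8 genes tested was 0.29, 0.27 and 0.29 at 24, 48 and 72 h, beside 0.02, 0.01 and 0.02 over all genes tested, and in TT-seq the median of the 9 was 0.03, 0.08 and 0.08, beside 0.01 over all genes at each time.

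**Figure D3:**
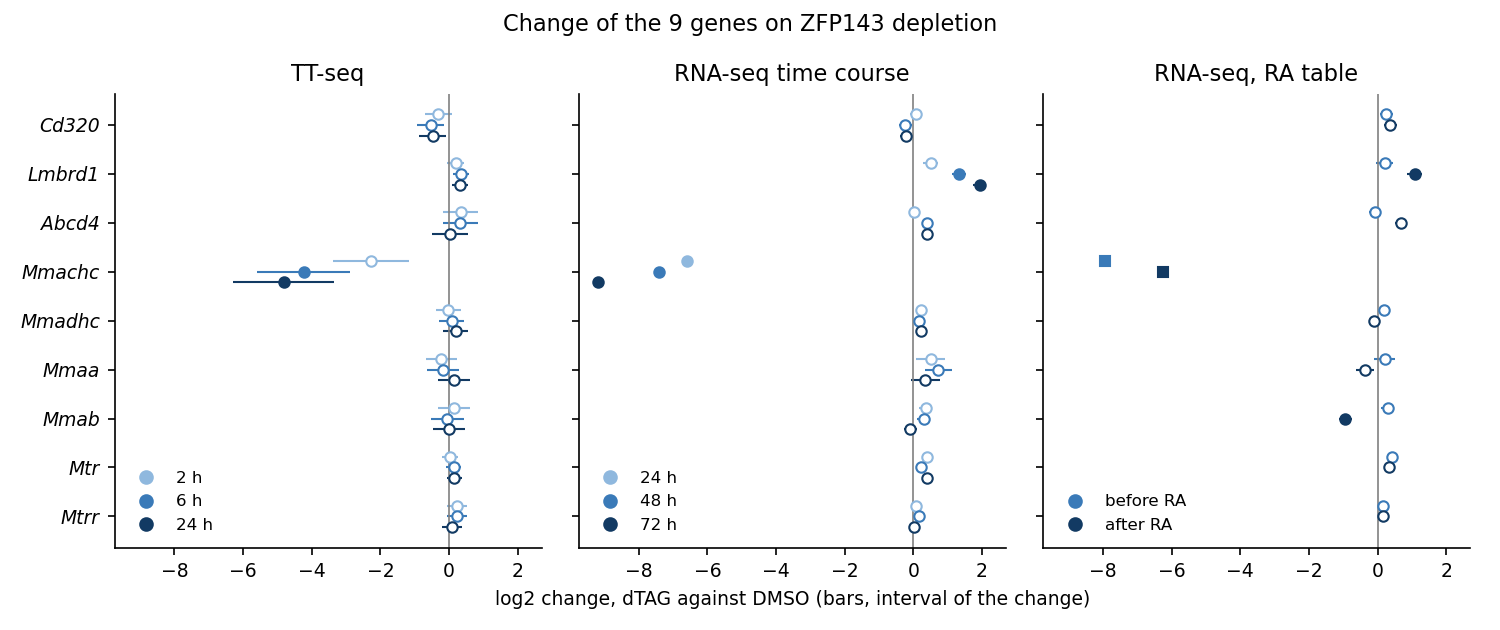
Log2 change on dTAG-V1 against DMSO for the 9 genes in TT-seq, the RNA-seq time course and the RA table, with bars for 95% intervals, left out for Mmachc in both RNA-seq panels; filled circles passed the call and open circles did not. Mmachc in the time course comes from the fit without a filter, and its squares in the RA table are the values it was chosen on. Mmachc lies between -2.28 and -9.18, Lmbrd1 reaches 1.94 at 72 h, and the other genes stay between -0.94 (Mmab after RA) and 0.72 (Mmaa at 48 h).

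In the RA table, dTAG-V1 before RA called 0 of the 8 genes other than Mmachc, both by edgeR and by DESeq2, against 6.4% of all genes tested. Against the 1.5-fold threshold, 0 of 8 had an unadjusted edgeR p under 0.05. That p does not speak to differences smaller than 1.5-fold. Their log2 changes lay between -0.07 (Abcd4) and 0.41 (Mtr). After RA, 2 of the 8 were called, Mmab lower and Lmbrd1 higher, against 16.5% of all genes, which for so few genes is near that share. Mmab was at 37.8 and 38.5 CPM in DMSO with RA and 19.7 and 20.2 in dTAG-V1 with RA, with no overlap (log2 change -0.94 ± 0.09, edgeR adjusted p = 0.000788). Lmbrd1 was at 15.4 and 18.6 CPM and 32.4 and 38.5 CPM (log2 change 1.07 ± 0.12, edgeR adjusted p = 0.000304). Both calls rested on single libraries or settings, while the changes kept their sign. Mmab lost its call without dTAG RA replicate 1 (log2 change -0.90), with library size alone (-0.73, edgeR adjusted p = 0.0813) and in DESeq2 (-0.91, adjusted p = 0.0486). Its adjusted p was 2.28e-08 to 0.0813 over all alternatives. Lmbrd1 lost its call without DMSO RA replicate 1 (log2 change 0.94).

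Of the 8 genes other than Mmachc, RA itself called 1 in DMSO, Mmaa higher, against 43.9% of all genes. Mmaa rose from 5.56 and 5.22 to 13.5 and 11.5 CPM (log2 change 1.22 ± 0.15, edgeR adjusted p = 0.000122). In dTAG-V1 it called 1 of the 8, Lmbrd1, which rose from 15.1 and 15.8 to 32.4 and 38.5 CPM (log2 change 1.20 ± 0.11, edgeR adjusted p = 7.26e-06), against 43.5% of all genes. Mmab went opposite ways, from 26.2 and 25.7 to 37.8 and 38.5 CPM in DMSO and from 32.0 and 31.4 to 19.7 and 20.2 CPM in dTAG-V1, with neither step called (log2 changes 0.56 and -0.67, edgeR adjusted p = 0.558 and 0.121). Library size alone called the step of Mmab in DMSO (log2 change 0.88, adjusted p = 0.00125), and the TT-seq threshold called both (1.06e-05 and 9.53e-07), with 1.06e-05 to 1 and 9.53e-07 to 1 over all alternatives.

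The response to RA differed between dTAG-V1 and DMSO for 4 of the 8 genes other than Mmachc, against 31.7% of all genes tested (adjusted p under 0.05 and a difference beyond 0.5 on the log2 scale, the threshold of TT-seq). With so few genes that count is near the share over all genes, and it was not tested against it. For Mmab the response in dTAG-V1 differed from that in DMSO by -1.23 ± 0.13 on the log2 scale (edgeR adjusted p = 1.94e-07). For Lmbrd1 it was higher by 0.87 ± 0.17 (adjusted p = 0.000332) and for Abcd4 by 0.75 ± 0.12 (adjusted p = 5.53e-05), the latter being at 55.1 and 59.7 CPM before and 49.8 and 41.1 CPM after RA in DMSO and at 54.7 and 54.6 and 72.2 and 74.6 CPM in dTAG-V1. Mmaa passed at -0.57 ± 0.21 (edgeR adjusted p = 0.0347), a call lost with both other scalings, in DESeq2 (adjusted p = 0.156) and on leaving out any library but DMSO RA replicate 2, with an adjusted p of 0.0173 to 0.731 over all alternatives. With the 1.5-fold threshold of the other contrasts of this table Lmbrd1 (adjusted p = 0.0979), Abcd4 (0.161) and Mmaa (0.731) lost their calls and Mmab kept its own. The adjusted p was 2.83e-05 to 0.0979 for Lmbrd1 and 8.1e-07 to 0.161 for Abcd4 over all alternatives. After 48 h of dTAG-V1 without RA, in the time course, the log2 changes were 1.33 for Lmbrd1, 0.40 for Abcd4 and 0.31 for Mmab, the first of them called, and the longer depletion and RA cannot be told apart. Mtr, Mtrr and Cd320 had differences of -0.07, 0.00 and 0.13, and Mmadhc of -0.27 (adjusted p = 0.0476), under the size asked for.

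**Figure D4:**
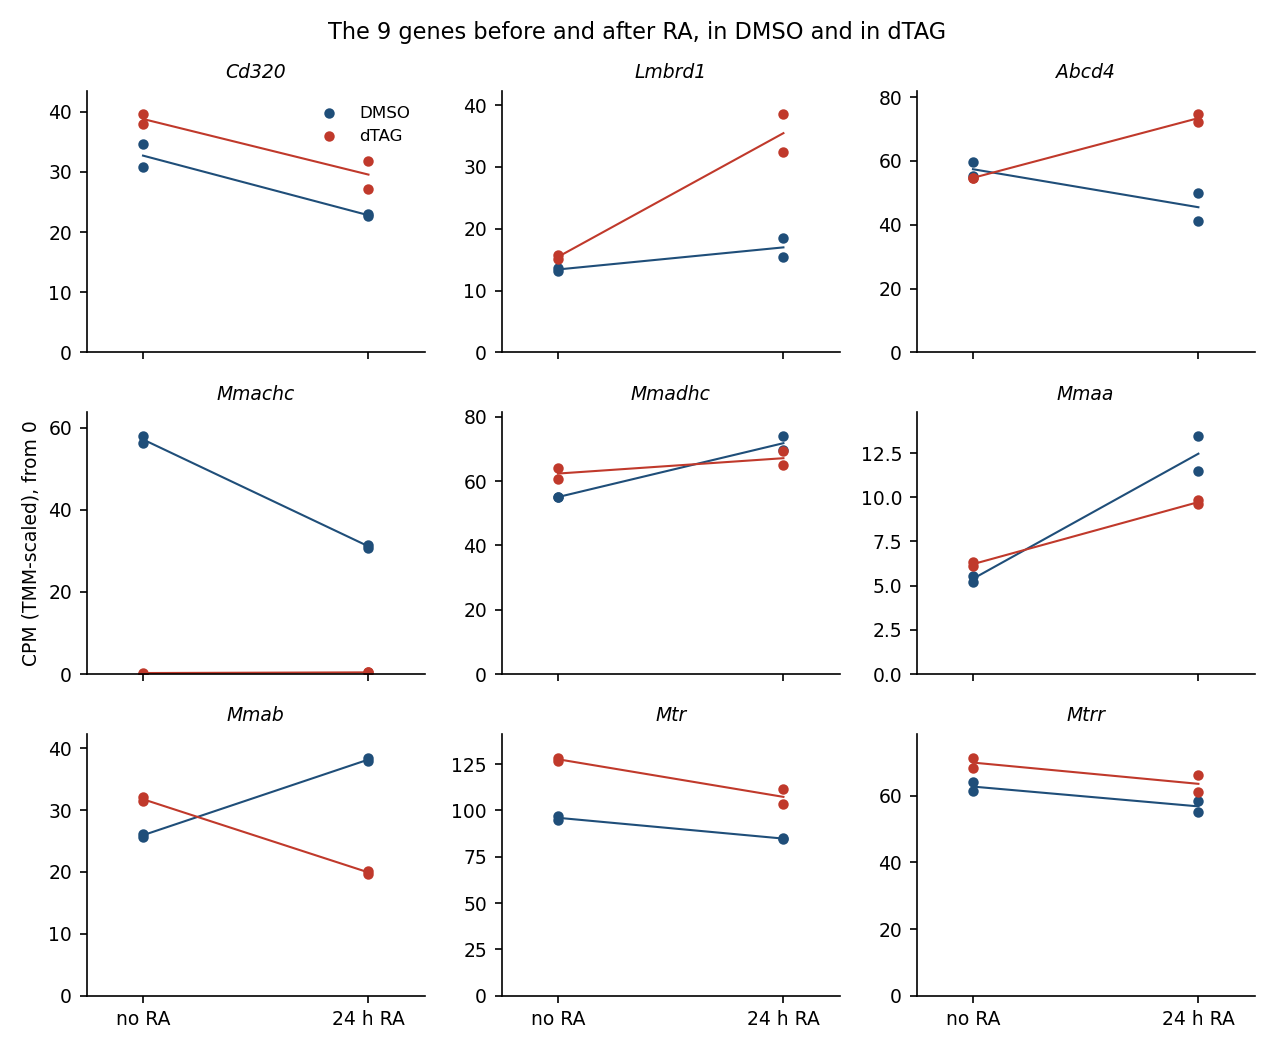
CPM of the 9 genes before and after 24 h of RA in DMSO (blue) and dTAG-V1 (red), with points for libraries, lines through group means and axes from 0. The lines of Mmab cross, those of Lmbrd1 and Abcd4 part after RA, and Mmachc lies near the axis in dTAG-V1 at 0.364 and 0.120 CPM before and 0.389 and 0.419 CPM after RA.

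The genes whose changes over the 3 time points lay nearest to those of Mmachc (Euclidean distance of the log2 changes, among genes with a mean count of at least 100) were, in TT-seq, Ifrd2, Enox2, Lmnb2, Cox7c and Mrps25, at distances of 1.20, 1.23, 1.45, 1.54 and 1.82 out of 10844 genes. In the RNA-seq time course, in the fit without the filter, they were Zfp111, Mrps25, Mpi, Bckdk and Pycard, at 2.15, 2.78, 2.81, 5.40 and 5.47 out of 9802 genes. Mrps25, which encodes a mitochondrial ribosomal protein, was in both lists. Zfp111, the nearest in RNA-seq, went from 51.2 and 52.4 CPM in DMSO to 0.185 and 0.477 CPM at 72 h. All 9 genes had a ZFP143 peak at a promoter, with summits 4 to 182 bp from a start and 21.5-fold (Enox2) to 196-fold (Mrps25) enrichment, while 13.8% of the genes tested in TT-seq had such a peak. Genes that fell mostly had one, 403 of the 435 called lower at 2 h and 538 of the 730 called lower at 24 h, and the 9 were picked for a deep fall. Of the 9 genes, 4 held the 13-base element within 150 bases of the summit, beside 26.1% of the windows around all ZFP143 summits. Ifrd2, Lmnb2, Mrps25, Mpi and Pycard did not hold it. The stretches of the 4 are shown beside those of Mmachc and Mtr, aligned on the element, with the letters that were searched in capitals.
Mmachc, chr4:116708396-116708422, plus strand: ggACTACAttTCCCAagaagtaaagga
Mtr, chr13:12258280-12258306, minus strand: ggACTACAtcTCCCAtagggccacgga
Zfp111, chr7:24208200-24208226, plus strand: ggACTACAttTCCCAgaatgctaaagt
Enox2, chrX:49288347-49288373, minus strand: aaACTACAttTCCCAtgaagacacatg
Cox7c, chr13:86046892-86046918, minus strand: agACTACAttTCCCAcaatccatcgga
Bckdk, chr7:127904027-127904053, plus strand: aaACTACAacTCCCAggaggcactggg

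Of 24 further genes of cobalamin transport and of the routes around its enzymes, 22 passed the filter in every table. In TT-seq edgeR called 0 of 22 at 2 and 6 h (1 and 4 of 22 at an unadjusted p under 0.05) and 3 of 22 at 24 h, beside 2.6%, 3.23% and 6.11% of all genes. In RNA-seq 3, 8 and 9 of 22 were called at 24, 48 and 72 h, beside 5.73%, 18.2% and 25.8%. Around the methionine synthase reaction, Ahcy, which clears S-adenosylhomocysteine to homocysteine and has a 73.1-fold enriched ZFP143 peak at its promoter, fell. Its RNA was at 109.7 and 107 CPM in DMSO, 62.4 and 57.6 at 24 h and then 30.4 and 29.6 at 72 h, with log2 changes of -0.85 ± 0.06 (edgeR adjusted p = 0.000414) and -1.85 ± 0.07 (adjusted p = 1.38e-16), and it was called in TT-seq at 24 h (-0.66 ± 0.13, adjusted p = 0.0232). Cth, the cystathionine gamma-lyase that releases cysteine from cystathionine, rose at 24 h from 84.8 and 80.0 to 168 and 158 CPM (log2 change 0.99 ± 0.05, edgeR adjusted p = 8.85e-08) and was called in TT-seq at 24 h (1.13 ± 0.26, adjusted p = 0.0396). Its RNA was at 147 and 154 CPM at 48 h, also called (log2 change 0.87), and at 108 and 113 CPM at 72 h, no longer called (0.43, edgeR adjusted p = 1). Cbs, which takes homocysteine to cystathionine, fell 2.92-fold at 72 h, and so did Bhmt (-1.26 on the log2 scale) and Bhmt2 (-1.05), the betaine-dependent alternatives to methionine synthase.

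On the transport side, Lrp2, the endocytic receptor megalin, was called higher at all 3 RNA-seq times (log2 change 2.12 at 24 h and 2.54 at 72 h), and Tcn2, the transcobalamin gene, at 72 h (0.82 ± 0.06). The export pump gene Abcc1 was called lower at 72 h (-1.47 ± 0.06). Cubn, with 3 and 1 RNA-seq counts in DMSO and 22 and 12 at 48 h, passed the filter of both time courses through depleted libraries only. Its calls, higher at 24 h in TT-seq and at 48 h in RNA-seq, stand in the counts above but are a description. Gif was listed at 0 counts in all 24 libraries. Of the 9 genes of the mitochondrial branch, Acsf3 alone was called in the time course, higher at 72 h (0.92 ± 0.11), while Mut, the cobalamin-dependent mutase itself, had log2 changes of 0.02, 0.25 and -0.01. Suclg1, with a 35.0-fold enriched promoter peak, had changes of -0.01, -0.06 and -0.24, none called. Of the 24 genes, 3 had a ZFP143 peak at a promoter, namely Ahcy, Suclg1 and, at 7.13-fold, Cth, where it lay at the start of a transcript that begins inside the gene and not at the gene's 5′ end. That count is near the 13.8% of genes tested in TT-seq that had such a peak. Before RA in the RA table Ahcy was called lower and Lrp2 and Cth higher, 3 of 22 beside 6.4% of all genes, and after RA Tcn2, Bhmt2, Cbs and Cth were called higher, 4 of 22 beside 16.5%, which is near that share.

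**Figure D5:**
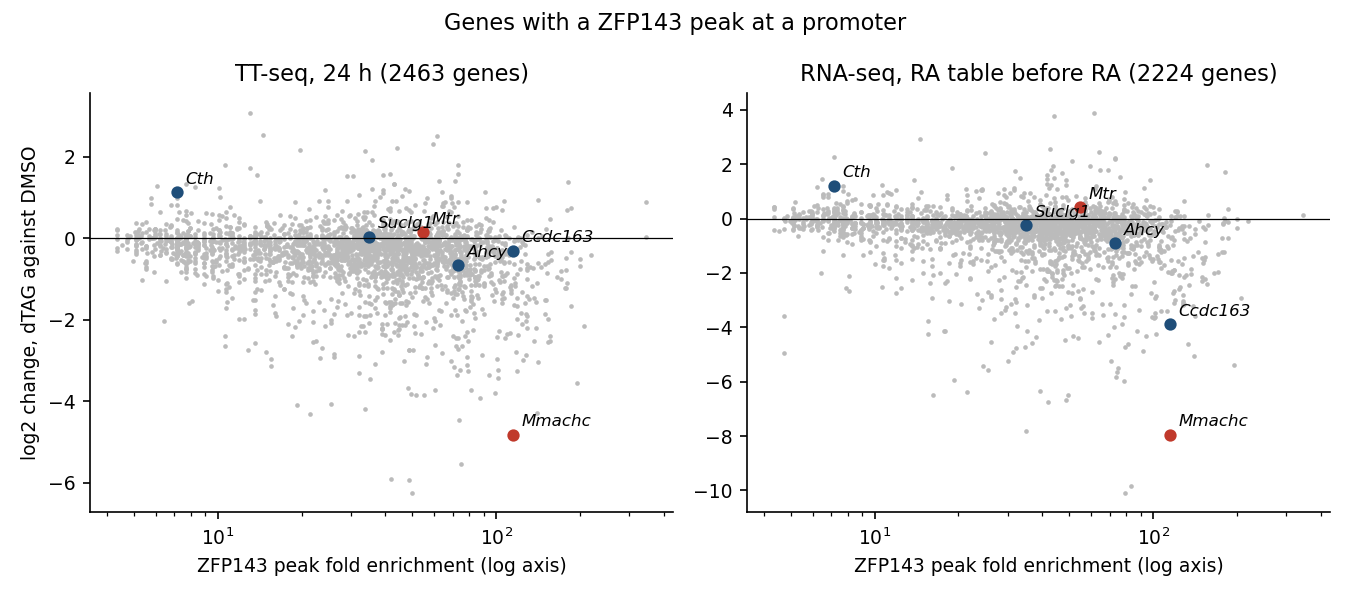
Log2 change on dTAG-V1 against the fold enrichment of the strongest ZFP143 peak at the promoter (log axis), for all tested genes with such a peak (grey), in TT-seq at 24 h (2463 genes) and in the RA table before RA (2224 genes); Mmachc and Mtr are red and further named genes blue. Mmachc lies far below 0 in both panels (-4.82 and -7.94), and Mtr at 0.15 and 0.41.

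Totals per library ran from 9721568 to 16532077 counts in TT-seq, 10261851 to 15316700 in the RNA-seq time course and 13890761 to 27089033 in the RA table. All 7 stem cell markers (Pou5f1, Nanog, Sox2, Esrrb, Zfp42, Klf4 and Tbx3) were at 1 CPM or more in every group. Their summed level in the time course was 4305 and 4370 CPM in DMSO, 3569 and 3549 CPM at 24 h and 2945 and 2973 CPM at 72 h, so it moved with the comparisons above. At 72 h Klf4 (206 and 209 CPM against 189 and 191) and Tbx3 (196 and 202 CPM against 179 and 170) were above DMSO. The other markers were below DMSO then. In the RA table the sum was 5252 and 5568 CPM in DMSO and 4661 and 4656 CPM in dTAG-V1 before RA, and 919 and 617 CPM in DMSO and 1360 and 1125 CPM in dTAG-V1 after RA. After RA both dTAG-V1 libraries were thus above both DMSO libraries, and before RA below them. After RA Esrrb was at 85.3 and 49.7 CPM in DMSO and 406 and 336 CPM in dTAG-V1, while Pou5f1 overlapped between them. The summed level of the 4 primitive endoderm markers moved with the depletion, in TT-seq from 12.4 and 9.22 CPM in DMSO to 20.4 and 19.2 CPM at 24 h and in the time course from 6.06 and 6.49 CPM in DMSO to 14.9 and 16.1 CPM at 48 h, with both 72 h libraries between these levels. In the RA table it was 4.09 and 4.99 CPM in DMSO, 7.53 and 9.81 CPM in dTAG-V1, and after RA 27.6 and 25.6 CPM in DMSO and 51.6 and 48.6 CPM in dTAG-V1, with no overlap. The 4 trophoblast markers summed to 8.73 and 8.77 CPM in DMSO and 16.6 and 17.0 CPM at 72 h in the time course, and to at most 15.8 CPM in the RA table and 6.91 CPM in TT-seq. In the time course that sum was almost all Eomes, at 8.73 and 8.62 CPM in DMSO and 15.9 and 16.8 CPM at 72 h. Cdx2 was at 0 counts in every group there, and Gata3 and Elf5 stayed below 1 CPM. The 5 RA response genes summed to 1.38 and 1.21 CPM in DMSO, 6.3 and 5.75 CPM at 24 h and 12.6 and 13.4 CPM at 72 h in the time course, and to at least 1257 CPM with RA. In TT-seq they summed to 1.97 and 12.1 CPM in DMSO and 4.82 and 16.8 CPM at 24 h, so that replicate 2 stood apart in both groups and the groups overlapped. The part of these lists in the results was not tested. The degradation acts on the protein, so Zfp143 RNA is no check of it. That RNA was 2.13-fold higher at 24 h in RNA-seq (log2 change 1.09 ± 0.06, edgeR adjusted p = 2.47e-08), and Thap11 and Hcfc1, the partners at the MMACHC promoter, were not called in either time course.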

How the data were processed

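The members and gene lists were chosen with earlier results of these data known. Per the methods, the authors aligned reads to mm10 with STAR, for TT-seq kept uniquely mapped reads without duplicates and counted them over whole genes with HTSeq, giving a read to every gene it overlapped, and for RNA-seq counted with STAR, for which the strand setting is not given in the sources used here. The deposited counts are raw counts per gene in 3 tables of 8 libraries, used as 24 of the 78 samples. The deposited ZFP143 peak list holds, per the file and the authors' methods, a score, the fold enrichment over input (a ratio), -log10 q values and the summit position from MACS2, and the deposited CTCF list holds intervals only. The 4C files were not used here.

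Genes above 10 counts in 4 or more of the 8 libraries were tested in edgeR 4.0.16 (R 4.3.3) with TMM scaling and 1 quasi-likelihood fit per table over 4 groups of 2. TT-seq was called at a Benjamini-Hochberg adjusted p under 0.05 and a log2 change beyond 0.5, and RNA-seq contrasts with glmTreat against 1.5-fold at an adjusted p under 0.01, both after the study's thresholds. The RA by dTAG difference was called at the TT-seq threshold, which is not the study's for RNA-seq. Standard errors are the log2 change divided by the root of the F statistic, which falls below counting error for genes with few counts in a group; no standard error is given for those. CPM are counts scaled to TMM library sizes, and counting intervals are exact at 95%. Symbols, positions and lengths came from GENCODE vM21, and 55141 of 55401 identifiers matched. Zfp76 matched none. Scripts were tested on simulated data. Mmachc, chosen on the RA table, was left out of all counts of calls there. The genes named are the 9 members, the 24 pathway genes that were called or needed beside them, neighbours, factors and, in each time course, the 5 genes with the smallest distance from Mmachc. Alternatives were other scalings, no filter, DESeq2 1.42.0, the replicate block, the other threshold and leaving out each library.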

Additional observations from a re-analysis of the deposited data

Results flagged for a closer look

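For 4 of the 8 genes other than Mmachc, the change on RA differed between dTAG-V1 and DMSO in the test of the difference itself (edgeR's quasi-likelihood test, 2 libraries a group), against 31.7% of all genes tested. For so few genes that count is near the share over all genes, and it was not tested against it. The change in dTAG-V1 minus that in DMSO was -1.23 on the log2 scale for Mmab (adjusted p = 1.94e-07), -0.57 for Mmaa (adjusted p = 0.0347), 0.87 for Lmbrd1 (adjusted p = 0.000332) and 0.75 for Abcd4 (adjusted p = 5.53e-05). The call of Mmaa was lost with both other scalings, in DESeq2 (adjusted p = 0.156) and on leaving out any library but DMSO RA replicate 2 (0.0173 to 0.731 over all alternatives). With a 1.5-fold threshold Lmbrd1 (adjusted p = 0.0979) and Abcd4 (0.161) lost their calls as well, with 2.83e-05 to 0.0979 and 8.1e-07 to 0.161 over all alternatives. RA, the medium and the longer time on dTAG-V1 cannot be told apart in these differences. No test for a single library that stands apart was run, since groups had 2 libraries.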

How the results depend on the processing

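Of 942 recomputed changes of single genes, 906 kept their side of the threshold, 22 were no longer called, 14 were newly called and 0 called changes reversed; 40 values that were called under neither setting changed sign, with log2 changes of at most 0.32. In TT-seq at 2 h the count of members called went from 0 to 1 (Mmachc) without the filter, in DESeq2 and with the replicate block, with a Mmachc adjusted p of 2.44e-07, 0.0143 and 0.0188 (2.44e-07 to 0.475 over all alternatives). At 6 and 24 h it went from 1 to 0 with the 1.5-fold threshold, and leaving out libraries gave 0 to 1 at 6 h. In the RNA-seq time course it went from 0 to 1 at 24 h, 1 to 2 at 48 h and 1 to 2 at 72 h without the filter (Mmachc), and to 1 at 24 h (Lmbrd1) and 2 at 48 h (Mmaa and Lmbrd1) with the TT-seq threshold. In the RA table after RA it went from 2 to 1 in DESeq2 and was 1 to 2 on leaving out libraries; library size alone called Abcd4 in place of Mmab, and the TT-seq threshold called Abcd4 as well, 3 in all. For RA in DMSO it was 2 in place of 1 with library size alone (Mmab added) and 3 with the TT-seq threshold (Mmab and Cd320 added). For RA in dTAG-V1 it was 3 in place of 1 with library size alone (Mmaa and Abcd4 added) and 3 with the TT-seq threshold (Mmab and Mmaa added). For the RA by dTAG difference it was 1 (Mmab) in place of 4 with the 1.5-fold threshold and 3 to 4 on leaving out libraries. The cause was not tested, other than that the filter removes Mmachc from the time course. The count of bound promoters was 2 with a 500 bp window and for peaks of at least 10-fold.

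Library size alone moved the median log2 change of all genes to 0.15, 0.21 and 0.23 in the time course and to 0.20, 0.21, 0.35 and 0.39 in the RA table's simple contrasts. With 2 replicate numbers only, it could not be settled that the numbers pair the libraries; deviations of same-numbered libraries correlated at 0.193 to 0.631 in TT-seq, -0.0419 to 0.0621 in the time course and -0.0986 to 0.125 in the RA table, and beyond Mmachc at 2 h the replicate block changed no count of members called. Where a library was left out, the lone sample of its group was taken to vary like the other groups, and the genes tested were those of the full table. Mmachc in the depleted libraries, at 0 to 25 counts, is limited by depth.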
